A study of Mus musculus with 40 samples.

Results

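Antiviral interferon-stimulated effectors are genes whose transcription is switched on by interferon, and many of their proteins hinder viral entry, replication or spread. The 9 described here were Ifit1, Ifit3, Ifitm3, Oasl2, Rsad2, Usp18, Rtp4, Trim30a and Zbp1, out of 19937 genes measured with an annotated probe set. Each was represented by 1 probe set, so taking the probe set with the highest mean left no choice to make. The set was chosen by symbol with earlier results on these arrays known, among them high differences between LPS and Vehicle brains, LPS+IDR and IDR brains, and injured and uninjured hemispheres without the peptide. Values from those contrasts, and from others that reuse their arrays without the peptide, are therefore given as a description, with no test.

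The arrays came from brains of C57/Bl6 mice on postnatal day 9, with 40 arrays in 8 groups of 5. Lipopolysaccharide (LPS) is a bacterial outer-membrane component that triggers innate immune signalling, IDR-1018 is a synthetic innate defence regulator peptide, and hypoxia-ischaemia (HI) is a model of newborn brain injury. In the LPS/HI+IDR groups IDR-1018 was given 4 h before LPS, HI followed LPS by 14 h and tissue was taken 6 h later, with the left, injured hemisphere and the right, uninjured hemisphere as separate groups. The LPS/HI injured and LPS/HI uninjured groups had the same course with vehicle in place of the peptide. LPS+IDR brains received IDR-1018 4 h before LPS and were removed 6 h after LPS, and LPS brains were removed 6 h after LPS, with no earlier dose named in the labels. IDR brains and Vehicle brains were removed 10 h after the peptide or vehicle alone. The LPS/HI groups thus differ from the 6 h and 10 h groups in time, in HI and in the tissue taken (a hemisphere in place of a brain). The labels do not say that each array is a separate animal, so p-values measure the spread between arrays.

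Interferon released after sensing of microbial products binds its receptor, and kinases at the receptor, Jak1 and Tyk2, then activate transcription factors, among them Stat2 with its partner Irf9, that act on interferon-stimulated response elements in promoters. Ifit proteins bind viral RNA and translation factors, Ifitm3 blocks membrane fusion of entering viruses, Oasl2 belongs to the oligoadenylate synthetase family, and Rsad2 (viperin) makes a chain-terminating nucleotide. Zbp1 senses left-handed nucleic acid and can start necroptosis through Ripk3 and Mlkl. Usp18 removes the ubiquitin-like protein Isg15 and dampens receptor signalling, Trim30a restrains Toll-like receptor signalling in mouse cells, and Rtp4 is an interferon-inducible receptor chaperone. In the brain, microglia, astrocytes and endothelial cells are all known to express such genes after LPS.

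The promoters show whether letters of the response element lie close to each start. RefSeq promoter windows (GRCm38.p6, 250 bases before to 50 after each start) were matched for 6 of the 9 genes. Those of Usp18, Rtp4 and Zbp1 were not matched. The letters searched were GAAANNGAAA and its reverse complement TTTCNNTTTC, and they are in capitals below. The 200 bases before the start are shown, except for Ifitm3, where the stretch holding both matches after the start is shown. In the minus-strand genes the sequence is that of the gene's own strand.
Ifit1, chr19:34640689-34640888, plus strand: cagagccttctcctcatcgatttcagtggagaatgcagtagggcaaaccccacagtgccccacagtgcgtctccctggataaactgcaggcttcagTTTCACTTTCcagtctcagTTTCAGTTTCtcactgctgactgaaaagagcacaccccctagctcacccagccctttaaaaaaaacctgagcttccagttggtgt
Ifit3, chr19:34583329-34583528, plus strand: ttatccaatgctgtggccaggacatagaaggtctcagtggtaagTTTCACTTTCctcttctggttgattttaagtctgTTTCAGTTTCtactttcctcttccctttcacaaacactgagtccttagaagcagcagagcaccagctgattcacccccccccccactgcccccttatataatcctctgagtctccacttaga
Rsad2, chr12:26456453-26456652, minus strand: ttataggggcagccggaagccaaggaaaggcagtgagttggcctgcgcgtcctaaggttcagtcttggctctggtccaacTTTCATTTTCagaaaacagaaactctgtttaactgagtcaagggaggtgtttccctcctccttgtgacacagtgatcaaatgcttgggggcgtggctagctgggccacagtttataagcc
Trim30a, chr7:104465194-104465393, minus strand: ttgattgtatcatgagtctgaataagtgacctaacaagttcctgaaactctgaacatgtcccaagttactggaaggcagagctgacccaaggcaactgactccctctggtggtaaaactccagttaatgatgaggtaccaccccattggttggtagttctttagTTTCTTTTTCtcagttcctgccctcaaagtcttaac
Oasl2, chr5:114896734-114896933, plus strand: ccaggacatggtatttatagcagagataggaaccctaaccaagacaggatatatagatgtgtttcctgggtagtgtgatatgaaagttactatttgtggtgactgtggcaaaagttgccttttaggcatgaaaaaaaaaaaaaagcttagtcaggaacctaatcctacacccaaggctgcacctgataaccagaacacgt
Ifitm3, chr7:141010716-141010742, minus strand: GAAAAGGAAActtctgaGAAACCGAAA
Ifit1 and Ifit3 each held 2 matches, at 104 and 85 bases before the Ifit1 start and 156 and 122 bases before the Ifit3 start used. The annotated Ifit3 gene begins upstream of the stretch shown, at chr19:34583119, so by that start its 2 matches lie inside the gene. Rsad2 held 1 match, 120 bases before its start, and Trim30a 1 match, 36 bases before the start shown. A second RefSeq start of Trim30a, whose window is not shown, had 1 further match, 3 bases after it. Ifitm3 held 2 matches just after its start, and the Oasl2 window held none. Of the 27025 genes with a window, 1079 (3.99%) held a match in at least 1 window, against 5 of the 6 matched genes here and 14 of 38 other interferon-stimulated effectors. A match describes letters only, and says nothing of binding.

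Array medians lay between 6.99 and 7.13 on the log2 scale and no pair of arrays held identical values. Several arrays stood apart. Replicate 4 was low for most of the 9 genes in LPS+IDR and in both LPS/HI+IDR groups, with mean deviations from the group mean of -0.65, -0.41 (uninjured) and -0.43 (injured). In LPS/HI injured, replicate 3 had a high level of both Xist (11.23) and the Y-linked genes (8.01), whereas the uninjured array of that number had Xist at 11.63 and Y-linked genes at 4.27. Arrays high in Xist alone numbered 3 in each LPS/HI+IDR group, 3 in LPS/HI injured, 4 in LPS/HI uninjured, 2 in LPS+IDR, 5 in LPS, 1 in IDR and 2 in Vehicle.

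All 9 genes stood higher in LPS than in Vehicle brains, with no overlap between arrays of the groups. The median log2 difference was 1.51, from 0.56 for Zbp1 to 1.87 for Ifit3, against a median of -0.02 over all genes. Of all genes, 1.19% were higher in LPS brains without overlap, a share read only as a description here, because this contrast was among those known when the genes were chosen. In tissue RNA, fewer cells of a type and less RNA per cell cannot be told apart.

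Of the Ifit genes, Ifit3 read 8.67, 8.24, 7.61, 8.12 and 8.11 in LPS brains, against 6.37, 6.38, 6.38, 6.21 and 6.10 in Vehicle brains. Ifit1 read 7.85, 7.82, 7.36, 7.65 and 7.54 in LPS brains, against 5.97, 6.17, 5.71, 5.37 and 5.95 in Vehicle brains. The lowest LPS array of each gene lay more than 1 log2 unit above the highest Vehicle array, so the groups were well apart. Ifitm3, which acts at the entry step, read 10.54, 10.25, 9.76, 10.06 and 10.68 in LPS brains, against 8.29, 8.17, 8.78, 8.43 and 8.57 in Vehicle brains. Oasl2 varied little within groups, at 8.78, 8.66, 8.45, 8.66 and 8.67 in LPS brains, against 7.10, 7.12, 6.97, 7.16 and 6.81 in Vehicle brains. Rsad2 had a narrower separation, at 7.00, 6.64, 6.35, 6.57 and 6.55 in LPS brains, against 6.28, 5.71, 5.89, 5.73 and 5.65 in Vehicle brains. The lowest LPS array of Rsad2 lay just above the highest Vehicle array.

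Of the regulators, Trim30a averaged 8.14 ± 0.12 in LPS brains and 6.63 ± 0.17 in Vehicle brains (SD, n = 5 each). Usp18 averaged 7.54 ± 0.21 in LPS brains and 6.35 ± 0.14 in Vehicle brains. Rtp4 averaged 7.52 ± 0.16 in LPS brains and 6.02 ± 0.16 in Vehicle brains. These 3 genes differed by 1.51, 1.19 and 1.50 on the log2 scale, between the values of Zbp1 and Ifit3. Zbp1, the nucleic acid sensor, read 7.09, 7.02, 6.69, 6.72 and 6.80 in LPS brains, against 6.08, 6.68, 6.27, 6.30 and 6.20 in Vehicle brains. Its groups were only just apart, since Vehicle replicate 2 stood well above the other Vehicle arrays. All 5 LPS arrays were high in Xist, against 2 of 5 Vehicle arrays. With Xist as a covariate the median difference of the 9 genes was 1.54, and that of Trim30a 1.66.

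**Figure D1:**
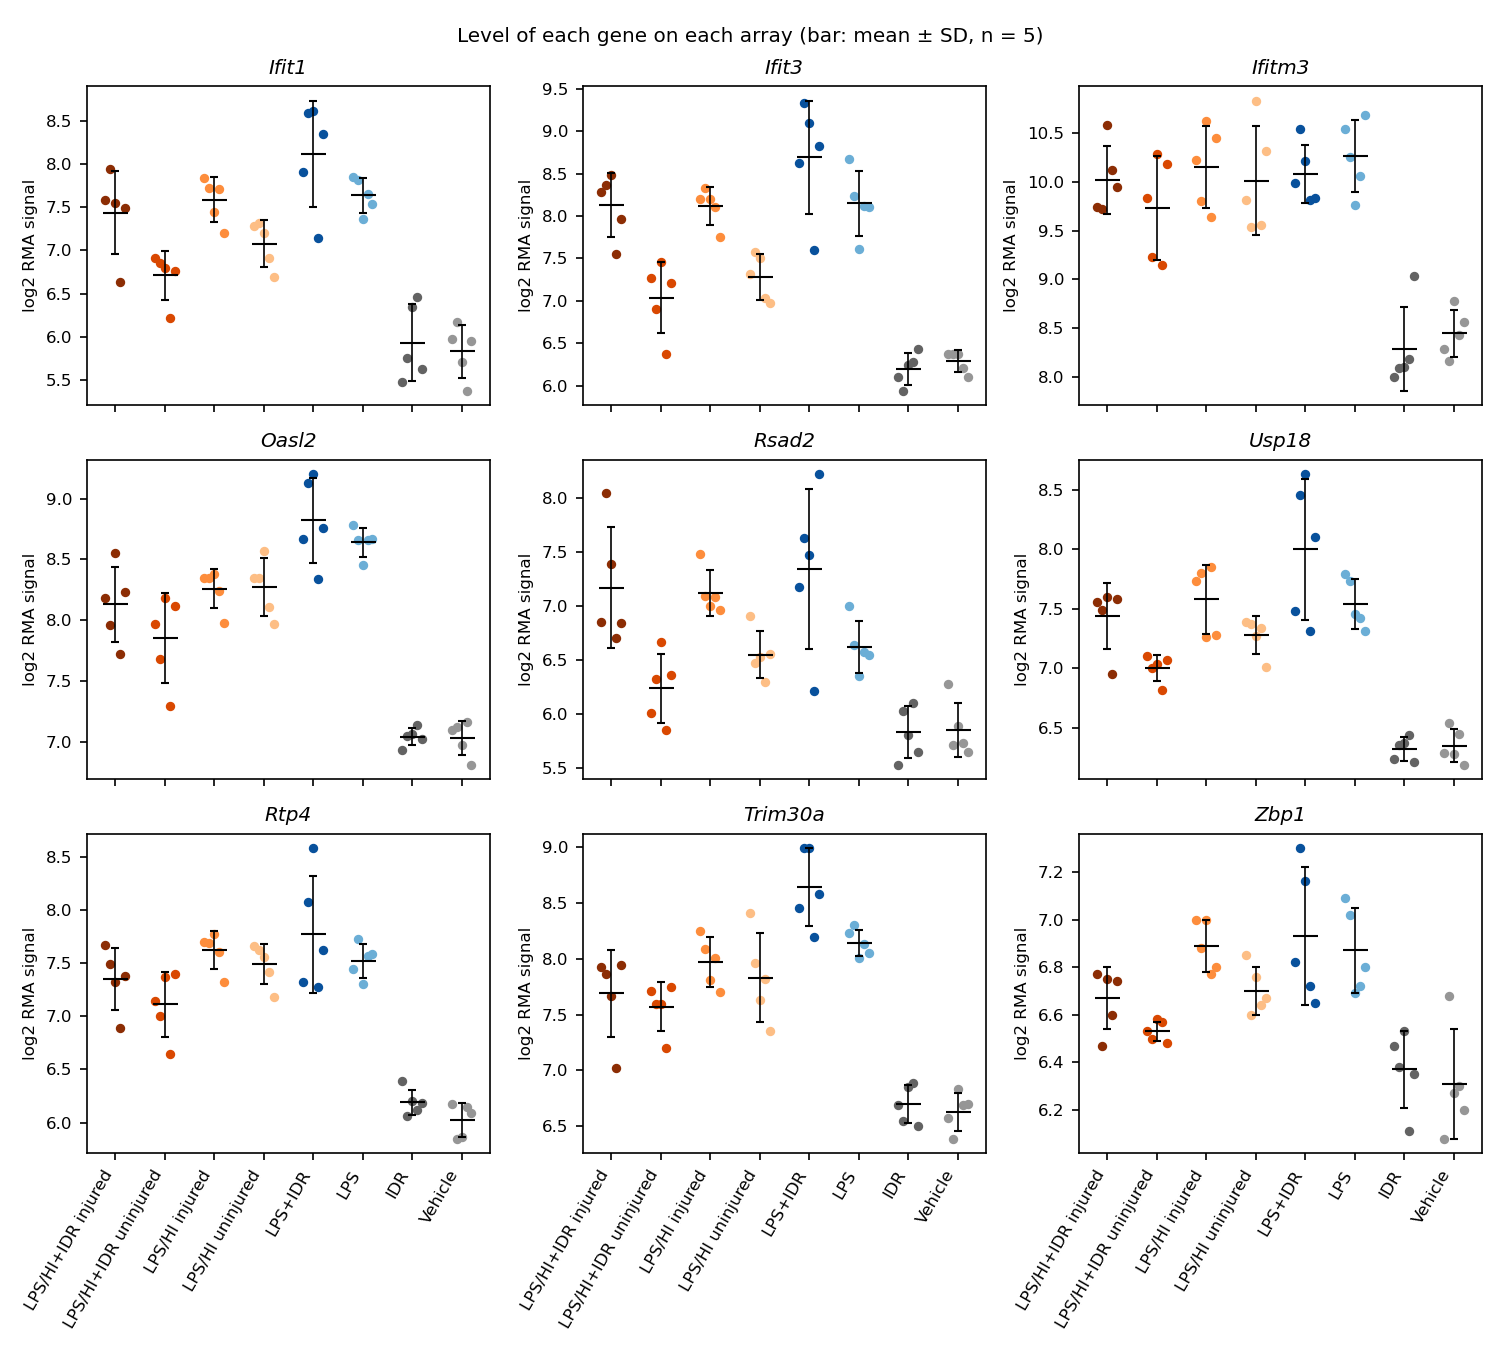
Log2 RMA signal (y axis) of each of the 9 genes on each array, by group (x axis), with points for arrays and bars for mean ± SD (n = 5). LPS+IDR has the highest mean for 8 of the 9 genes (LPS for Ifitm3), and IDR and Vehicle have the 2 lowest means for every gene.

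In pups given the peptide first, LPS+IDR brains also stood above IDR brains for all 9 genes without overlap (1.89% of all genes did so), with a median difference of 1.78 and a range from 0.56 for Zbp1 to 2.49 for Ifit3. Without LPS+IDR replicate 4 the median was 1.86. Ifit1 differed by 2.19, Trim30a by 1.94 and Rsad2 by 1.52 on the log2 scale. Over the 8 groups the order of the means was similar from gene to gene. LPS+IDR was highest for 8 genes, while Ifitm3 had LPS highest, and IDR and Vehicle were the lowest pair throughout. Most neighbours in the order overlapped. The ranges separated the baseline pair from all LPS-treated groups for Ifitm3, Oasl2, Usp18, Rtp4 and Trim30a, whereas for Ifit1, Ifit3, Rsad2 and Zbp1 the LPS/HI+IDR uninjured arrays reached into the baseline range. For Rsad2 the LPS+IDR arrays did so too (lowest 6.21, against a highest Vehicle array of 6.28). For Zbp1 so did LPS+IDR (6.65), LPS/HI uninjured (6.60) and LPS/HI+IDR injured (6.47), against a highest Vehicle array of 6.68.

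The wider pathway was described from lists that leave the 9 genes out, by how many genes stood higher in LPS than in Vehicle brains without overlap. Of all genes, 1.19% did so. The lists were chosen with earlier results of these data known, so the counts are a description. Among 46 other interferon-stimulated effectors measured, 23 did so, with a median difference of 0.38. The largest differences among them were those of Sp100 (a nuclear body protein, 1.46), Slfn5 (1.09), Rnf213 (1.05) and Parp14 (1.02). Of 15 sensors and adaptors, 4 did so, namely the RNA sensors Ddx58 (RIG-I, 0.79), Dhx58 (0.59) and Ifih1 (MDA5, 0.58), and the adaptor Sting1 (0.32). Of 7 transcription factors, 3 did so, namely Irf7 (1.22), Irf9 (0.47) and Stat2 (0.18). Irf7, which drives interferon genes, averaged 7.20 ± 0.21 in LPS brains and 5.98 ± 0.09 in Vehicle brains (SD, n = 5 each). Irf8 was higher by 0.27 with overlap. None of 11 interferon genes, 9 receptors and kinases or 8 negative regulators stood higher without overlap, and the largest differences on those lists were 0.10 for Ifna2, -0.11 for Ifne, -0.14 for the kinase Jak2 and -0.18 for Ptpn2 (a phosphatase that dampens cytokine signalling). Ifnb1, the gene for interferon beta, averaged 5.05 ± 0.19 in LPS brains and 5.08 ± 0.08 in Vehicle brains. Of the 4 measured partners of Zbp1 in cell death, Mlkl, the executioner of necroptosis, was higher by 0.66, and its ranges did not overlap.

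Injury was examined in pups given IDR-1018, by setting their left hemispheres against their right ones; these arrays were in none of the contrasts named in the opening. Ifit3 rose in the injured hemisphere by 1.09 ± 0.20 on the log2 scale (SE; limma adjusted p = 0.0140, n = 5 each), and was the 1 gene of the 9 called, against 1.80% of all genes called higher. Ifit3 read 8.28, 8.37, 8.48, 7.55 and 7.97 in LPS/HI+IDR injured, against 7.27, 6.91, 7.46, 6.38 and 7.21 in LPS/HI+IDR uninjured. Every injured array lay above every uninjured array, as it did for Rsad2, and 3.18% of all genes were higher without overlap. Rsad2 read 6.85, 8.05, 7.39, 6.70 and 6.84 in LPS/HI+IDR injured, against 6.01, 6.32, 6.67, 5.85 and 6.36 in LPS/HI+IDR uninjured, a difference of 0.92 ± 0.23 (limma adjusted p = 0.0517). Ifit1 read 7.58, 7.95, 7.55, 6.64 and 7.49 in LPS/HI+IDR injured, against 6.91, 6.85, 6.80, 6.22 and 6.76 in LPS/HI+IDR uninjured. Its difference of 0.73 ± 0.20 had a limma adjusted p of 0.0736, and only injured replicate 4 lay within the uninjured range. Usp18 differed by 0.43 ± 0.11 (limma adjusted p = 0.0684).

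The other 5 genes had smaller differences, from 0.12 for Trim30a to 0.29 for Ifitm3, with limma adjusted p between 0.420 and 0.824. All 9 differences were above 0, with a median of 0.29, and the median over all genes was -0.00034. Without replicate 4 of both hemispheres, an alternative chosen after seeing the data, 3 of the 9 were called: Ifit3 (1.07, limma adjusted p = 0.00421), Ifit1 (0.81, 0.00421) and Usp18 (0.51, 0.00454). Over all 19937 genes, 352 were called there, against 498 in the main fit. Without injured replicate 4 alone, 4 of the 9 and 515 of all genes were called. Fitting the Xist level as a covariate also gave 4 calls of the 9, as did fitting the mean of the ribosomal protein genes. In 1 fit to all 8 groups 3 of the 9 were called. Calls over all genes rose too in these fits, to 1083, 2082 and 1432 in that order. Arrays of the same number were alike in Xist and Y-linked level in all 5 pairs of hemispheres, but the labels do not say that a pair came from 1 animal. With the replicate number as a block, 5 of the 9 were called by limma: Ifit3, Ifit1 (adjusted p = 0.00160), Rsad2 (0.00548), Usp18 (0.00962) and Oasl2 (0.0446). Over all genes, 894 were called with the block. In pups without the peptide, the injured minus uninjured difference was 0.83 for Ifit3, 0.57 for Rsad2, 0.51 for Ifit1 and 0.31 for Usp18, and between -0.01 and 0.19 for the other 5. Ifit3 and Rsad2 were the 2 genes without overlap there, against 3.42% of all genes, and earlier knowledge of those values makes them a description. The median was 0.19, and 0.18 without LPS/HI injured replicate 3.

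**Figure D2:**
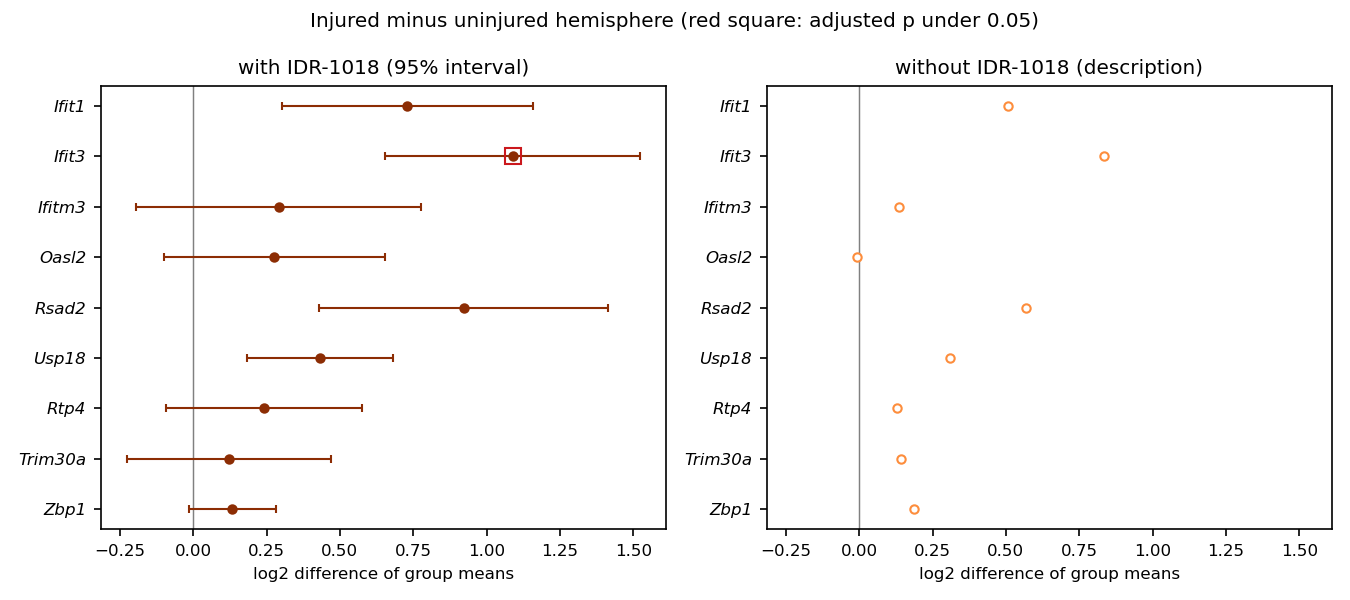
Log2 difference of the injured minus the uninjured hemisphere (x axis) for each gene (y axis), with IDR-1018 at the left (points with 95% intervals, red square where adjusted p is under 0.05) and without it at the right (points only, a description). Ifit3, Rsad2, Ifit1 and Usp18 have the 4 largest differences in both panels, and Ifit3 alone has a square.

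The injury difference with the peptide minus that without it was fitted as an interaction. It contains the injury contrast without the peptide, which was known when the genes were chosen, so it is given as a description. The values ran from -0.05 for Zbp1 to 0.35 for Rsad2, with 0.25 for Ifit3. The limma fit called none of the 9 and none of the 19937 genes (0%; 361 genes and 0 of the 9 had an unadjusted p under 0.05), from which nothing is read about the 9. Of the pathway lists, injury with the peptide raised Socs3, a feedback inhibitor of cytokine signalling, by 0.61 ± 0.10 (limma adjusted p = 0.00884), the only 1 called of 8 negative regulators. Of 46 other effectors, 2 were called, where 1.80% of all genes were called higher: Trim25, a ligase that activates RIG-I, by 0.34 ± 0.06 (0.00686), and Ifit3b by 0.49 ± 0.11 (0.0324). Ifit3b is a near-identical neighbour of Ifit3, so probes may share its signal, and its levels of 4.50 ± 0.25 in LPS/HI+IDR injured and 4.00 ± 0.13 in LPS/HI+IDR uninjured (SD, n = 5 each) lie low on this scale. None of the sensors, interferon genes, receptors or transcription factors was called.

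The late level was compared with the early level in pups given IDR-1018, as LPS/HI+IDR uninjured against LPS+IDR. These groups also differ in HI and in the tissue taken, which cannot be told apart from time. The values of LPS+IDR against IDR were known when the genes were chosen, and a choice of genes high in LPS+IDR favours a lower late value, so the p-values here are not independent of that choice, and the counts of the 9 genes and the shares of all genes are given as a description. Ifit1, Ifit3, Oasl2 and Trim30a were called lower, 4 of the 9, where 0.441% of all genes were called lower. Ifit3 read 7.27, 6.91, 7.46, 6.38 and 7.21 in LPS/HI+IDR uninjured, against 8.62, 9.33, 9.09, 7.60 and 8.83 in LPS+IDR, a difference of -1.65 ± 0.27 (limma adjusted p = 0.0133). Ifit1 read 6.91, 6.85, 6.80, 6.22 and 6.76 in LPS/HI+IDR uninjured, against 7.91, 8.59, 8.62, 7.14 and 8.35 in LPS+IDR, a difference of -1.41 ± 0.24 (0.0133). Both were separated without overlap, as were 6 of the 9 genes in all and 1.35% of all genes. Trim30a read 7.71, 7.59, 7.59, 7.20 and 7.75 in LPS/HI+IDR uninjured, against 8.45, 8.99, 8.99, 8.19 and 8.58 in LPS+IDR, a difference of -1.07 ± 0.15 (limma adjusted p = 0.00417). Oasl2 differed by -0.97 ± 0.18 (0.0271), and this call was lost without any 1 of several arrays: LPS/HI+IDR uninjured replicate 1 or 2, or LPS+IDR replicate 1, 2, 3 or 5, with adjusted p between 0.0502 and 0.0724.

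Usp18 had a difference of -0.99 ± 0.21 at the edge of the threshold (limma adjusted p = 0.0502), and Rsad2 one of -1.10 ± 0.28 (0.113). Both were called without LPS+IDR replicate 4, which brought the count to 6 of 9. Over all genes, 118 were called there, against 127 with every array. Ifitm3 differed least, by -0.34 ± 0.21 (limma adjusted p = 0.503), at 9.83, 9.23, 10.28, 9.15 and 10.18 in LPS/HI+IDR uninjured, against 9.99, 10.54, 10.21, 9.81 and 9.83 in LPS+IDR, and its ranges overlapped. Rtp4 differed by -0.66 ± 0.22 (0.246) and Zbp1 by -0.40 ± 0.11 (0.146). Without the peptide, the LPS/HI uninjured minus LPS difference was -0.87 for Ifit3 and -0.56 for Ifit1, the 2 genes without overlap, against 0.742% of all genes. The other 7 lay between -0.37 and -0.03. Arrays high in Xist numbered 3 of 5 in LPS/HI+IDR uninjured and 2 of 5 in LPS+IDR. With Xist as a covariate 4 of the 9 were called, where 159 of all genes were, against 127 without the covariate.

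LPS/HI+IDR uninjured was also set against IDR brains, from which it differs in LPS, HI, time and the tissue taken. IDR brains were the low side of the contrast of LPS+IDR with IDR, so the same reservation holds and the counts are a description. Of the 9 genes, 5 were called higher, where 0.181% of all genes were called higher. Ifitm3 read 9.83, 9.23, 10.28, 9.15 and 10.18 in LPS/HI+IDR uninjured, against 8.00, 8.09, 8.11, 8.19 and 9.04 in IDR brains, a difference of 1.45 ± 0.23 (limma adjusted p = 0.0193). IDR replicate 5 came near the lowest LPS/HI+IDR uninjured array, but the groups did not overlap. Rtp4 read 7.14, 7.00, 7.37, 6.64 and 7.40 in LPS/HI+IDR uninjured, against 6.39, 6.06, 6.20, 6.12 and 6.18 in IDR brains, a difference of 0.92 ± 0.12 (limma adjusted p = 0.00470). Trim30a differed by 0.87 ± 0.11 (0.00255), Oasl2 by 0.81 ± 0.14 (0.0239) and Usp18 by 0.68 ± 0.07 (0.00110). These 5 were the genes without overlap, as were 0.552% of all genes. The call of Usp18 was lost in 1 fit to all 8 groups (limma adjusted p = 0.0515), and that of Oasl2 with the replicate number as a block (0.0544).

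Ifit3, which had the largest difference in LPS+IDR against IDR, was higher by 0.84 ± 0.16 here and missed the threshold (limma adjusted p = 0.0641). It was called without replicate 4 of LPS/HI+IDR uninjured (1.00, limma adjusted p = 0.00142). Ifit1 differed by 0.78 ± 0.18 (0.179), Rsad2 by 0.42 ± 0.14 (0.588) and Zbp1 by 0.16 ± 0.08 (0.961). Arrays high in Xist numbered 3 of 5 in LPS/HI+IDR uninjured and 1 of 5 in IDR brains. With Xist as a covariate 21 of all genes were called, against 40 without it. Of the 9, 3 were then called, because Ifitm3 (limma adjusted p = 0.0841) and Oasl2 (0.151) were lost. Both genes were also lost without LPS/HI+IDR uninjured replicate 1 or 5, or IDR replicate 1, 2, 3 or 4, leaving 3 calls each time. Oasl2 alone was lost without LPS/HI+IDR uninjured replicate 3 or IDR replicate 5. Over all genes, leaving out single arrays gave 21 to 66 calls. Without the peptide, the LPS/HI uninjured minus Vehicle difference had a median of 1.20 over the 9 genes, from 0.40 for Zbp1 to 1.56 for Ifitm3. The ranges of 8 genes, all but Zbp1, were separate there, against 0.893% of all genes.

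**Figure D3:**
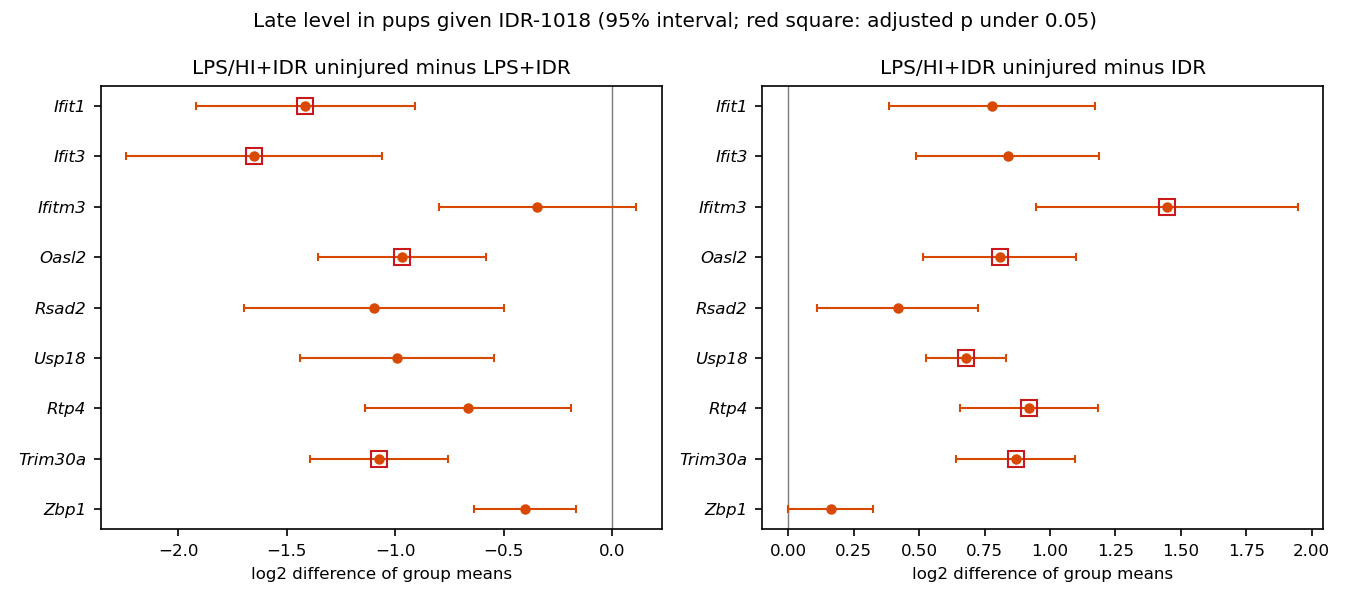
Log2 difference (x axis) of LPS/HI+IDR uninjured minus LPS+IDR at the left and minus IDR at the right for each gene (y axis), with 95% intervals and a red square where adjusted p is under 0.05. Squares mark Ifit1, Ifit3, Oasl2 and Trim30a at the left and Ifitm3, Oasl2, Usp18, Rtp4 and Trim30a at the right. The groups differ in HI and in the tissue taken as well as in time.

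Oasl2 and Trim30a were called in both comparisons: they lay below LPS+IDR and above IDR. A choice of genes high in LPS+IDR against IDR favours such a position, and the comparisons share the LPS/HI+IDR uninjured arrays, so this is a description. Of 46 other effectors, 12 were called lower than in LPS+IDR and 7 higher than in IDR brains, where 0.441% and 0.181% of all genes were. Trim30d, a close relative of Trim30a whose probes may share signal with it, was lower than in LPS+IDR by 0.85 ± 0.17 (limma adjusted p = 0.0349). Parp14, a mono-ADP-ribosyltransferase, was lower by 0.92 ± 0.14 and Samhd1, which depletes nucleotides, by 0.53 ± 0.07 (limma adjusted p = 0.00766 and 0.00327). The sensor Ddx58 averaged 7.80 in LPS/HI+IDR uninjured, 8.51 in LPS+IDR and 7.44 in IDR brains, and was called against both (0.0221 and 0.0287). Ifih1 was called lower than in LPS+IDR by 0.66 ± 0.11 (limma adjusted p = 0.0132). No interferon gene, receptor, kinase, transcription factor, negative regulator or partner of Zbp1 was called in either comparison.

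The effect of the peptide itself was tested in 4 settings, and none of the 9 genes was called in any of them. In limma, no gene of the 19937 was called either (0% in each). The unadjusted limma p was under 0.05 for 321 genes in IDR against Vehicle and 2674 in LPS+IDR against LPS. It was so for 376 and 277 genes in LPS/HI+IDR against LPS/HI uninjured and injured. With no difference a share of about 0.05 of all genes would fall there. Only LPS+IDR against LPS, whose groups also differ in arrays high in Xist, exceeded it. In IDR against Vehicle, differences lay between -0.16 and 0.17 with a median of 0.01, and 95% half-widths ran from 0.16 for Oasl2 to 0.41 for Ifit1. None of the 4 was among the contrasts named in the opening, but all arrays of these settings except those of the LPS/HI+IDR groups were in such contrasts, so their p-values are not independent of the choice.

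In LPS+IDR against LPS, 8 of the 9 differences were above 0, and the median was 0.45, against -0.02 over all genes. Trim30a differed by 0.49 ± 0.13 (limma adjusted p = 0.326), with values of 8.45, 8.99, 8.99, 8.19 and 8.58 in LPS+IDR, against 8.23, 8.30, 8.01, 8.13 and 8.05 in LPS brains. Rsad2 differed by 0.72 ± 0.27 (limma adjusted p = 0.333), with values of 7.18, 7.63, 7.47, 6.21 and 8.22 in LPS+IDR, against 7.00, 6.64, 6.35, 6.57 and 6.55 in LPS brains. LPS+IDR replicate 4 was the lowest of all 10 arrays for Rsad2, and the other 4 were above every LPS array. Ifitm3 had the 1 difference below 0, -0.18 ± 0.17 (limma adjusted p = 0.649). The spread was wider in LPS+IDR than in LPS brains for 8 of the 9 genes, as for Usp18, with SDs of 0.59 and 0.21. Without LPS+IDR replicate 4 the differences of Rsad2, Ifit3 and Ifit1 were 1.00, 0.82 and 0.73, and no gene was called (limma adjusted p = 0.315 for each). All 5 LPS arrays were high in Xist, against 2 of 5 in LPS+IDR. No gene was called with Xist as a covariate. The interaction of LPS and IDR, made up of contrasts known when the genes were chosen and so a description, had a median of 0.38 and a largest value of 0.75 for Rsad2. The limma fit called 0 of the 9 there (0.00502% of all genes). An unadjusted limma p was under 0.05 for 2 of the 9 and for 873 of the 19937 genes.

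In LPS/HI+IDR uninjured against LPS/HI uninjured, all 9 differences were below 0, from -0.42 for Oasl2 to -0.17 for Zbp1 with a median of -0.28, against 0.01 over all genes. The limma adjusted p was 1.00 for each, with an unadjusted p under 0.05 for 5 of the 9 and for 376 of the 19937 genes. Oasl2 read 7.97, 7.68, 8.18, 7.29 and 8.12 in LPS/HI+IDR uninjured, against 8.35, 8.35, 8.57, 8.11 and 7.97 in LPS/HI uninjured. Zbp1 read 6.53, 6.50, 6.58, 6.57 and 6.48 in LPS/HI+IDR uninjured, against 6.85, 6.60, 6.76, 6.64 and 6.67 in LPS/HI uninjured. Zbp1 was the 1 gene lower without overlap and by a narrow margin, against 0.125% of all genes. In LPS/HI+IDR injured against LPS/HI injured, 7 of the 9 differences were below 0, with a median of -0.15. Zbp1 was again separate, at 6.77, 6.47, 6.75, 6.60 and 6.74 in LPS/HI+IDR injured, against 7.00, 6.88, 7.00, 6.77 and 6.80 in LPS/HI injured, where 0.145% of all genes were lower without overlap. Its difference was -0.23 ± 0.08 (limma adjusted p = 1.00), and the 2 groups met within rounding at 6.77. Without replicate 4 of the LPS/HI+IDR groups, chosen after seeing the data, the uninjured differences ran from -0.28 for Oasl2 to -0.07 for Ifit3. The injured differences then ran from -0.21 for Zbp1 to 0.16 for Rsad2. Among them Ifit1 stood at 0.05, and Oasl2 and Usp18 at -0.03 each, so their position relative to 0 rested largely on that array. None of the genes on the pathway lists was called in any of the 4 settings.

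**Figure D4:**
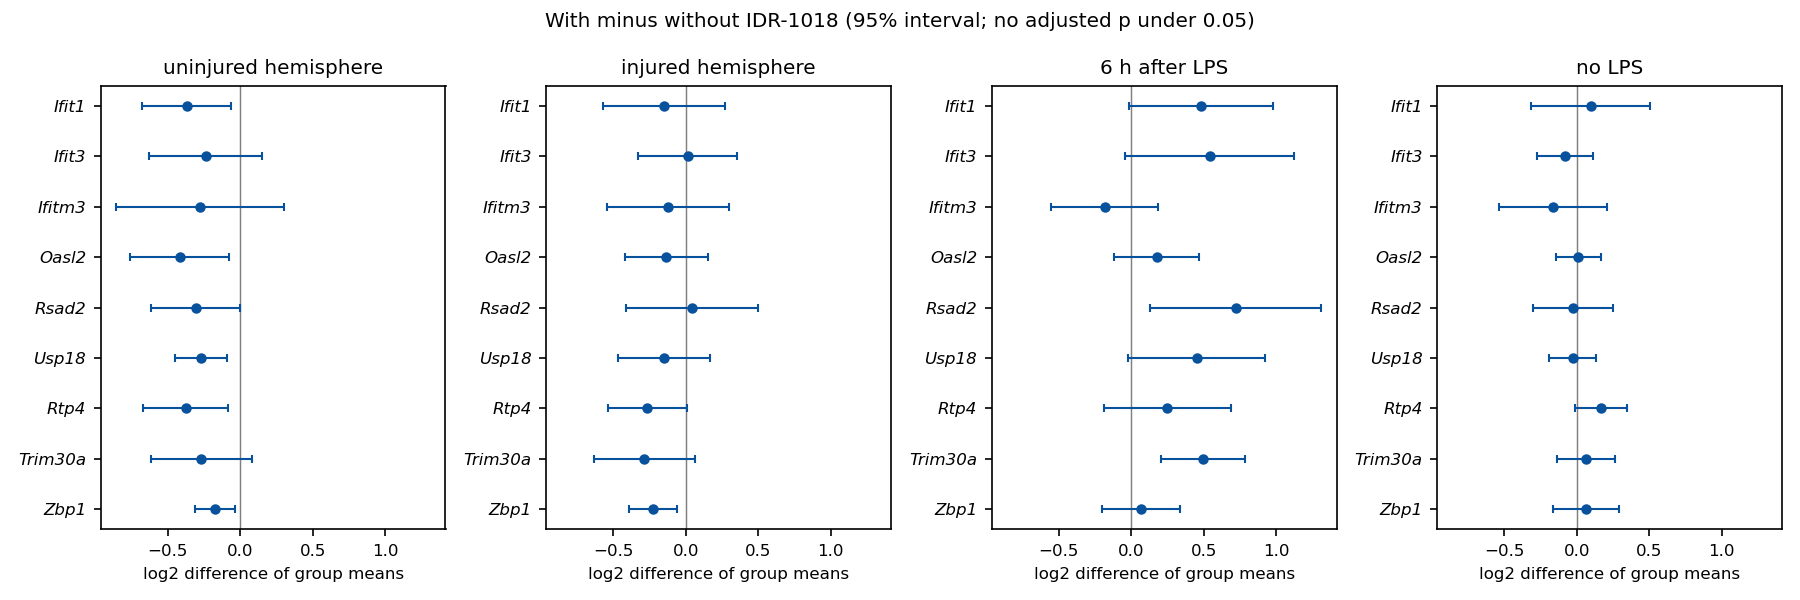
Log2 difference with minus without IDR-1018 (x axis) for each gene (y axis) in the uninjured and injured hemispheres, 6 h after LPS, and without LPS, with 95% intervals. The 9 differences lie below 0 in the uninjured hemisphere, 8 of 9 lie above 0 at 6 h after LPS, and no adjusted p is under 0.05.

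Most, but not all, of the 9 genes moved together from array to array within groups. Pearson r between pairs of the genes had a median of 0.85 over the 40 arrays (36 pairs, from 0.61 to 0.96), which includes the differences between groups. After removing group means the median was 0.50, from -0.05 to 0.84, while the 9 genes with all other genes had a median of -0.01. Ifit3 with Oasl2 had the highest value, 0.84, and Ifit1 with Ifit3 had 0.78. Ifitm3 moved apart from several of the others within groups, with r of 0.01 with Ifit1, -0.03 with Usp18, -0.05 with Trim30a and 0.14 with Rsad2. Zbp1 had r of 0.01 with Rsad2, 0.28 with Ifit1 and 0.30 with Trim30a. The points share arrays and their normalization, and no p is given. Replicate 4 was the lowest array for 8 of the 9 genes in LPS+IDR, for 8 in LPS/HI+IDR uninjured and for 7 in LPS/HI+IDR injured. LPS replicate 3 was lowest for 8 genes, with a mean deviation of -0.27. In the IDR and Vehicle groups no array was lowest for more than 4 genes, and mean deviations lay between -0.11 and 0.10.

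**Figure D5:**
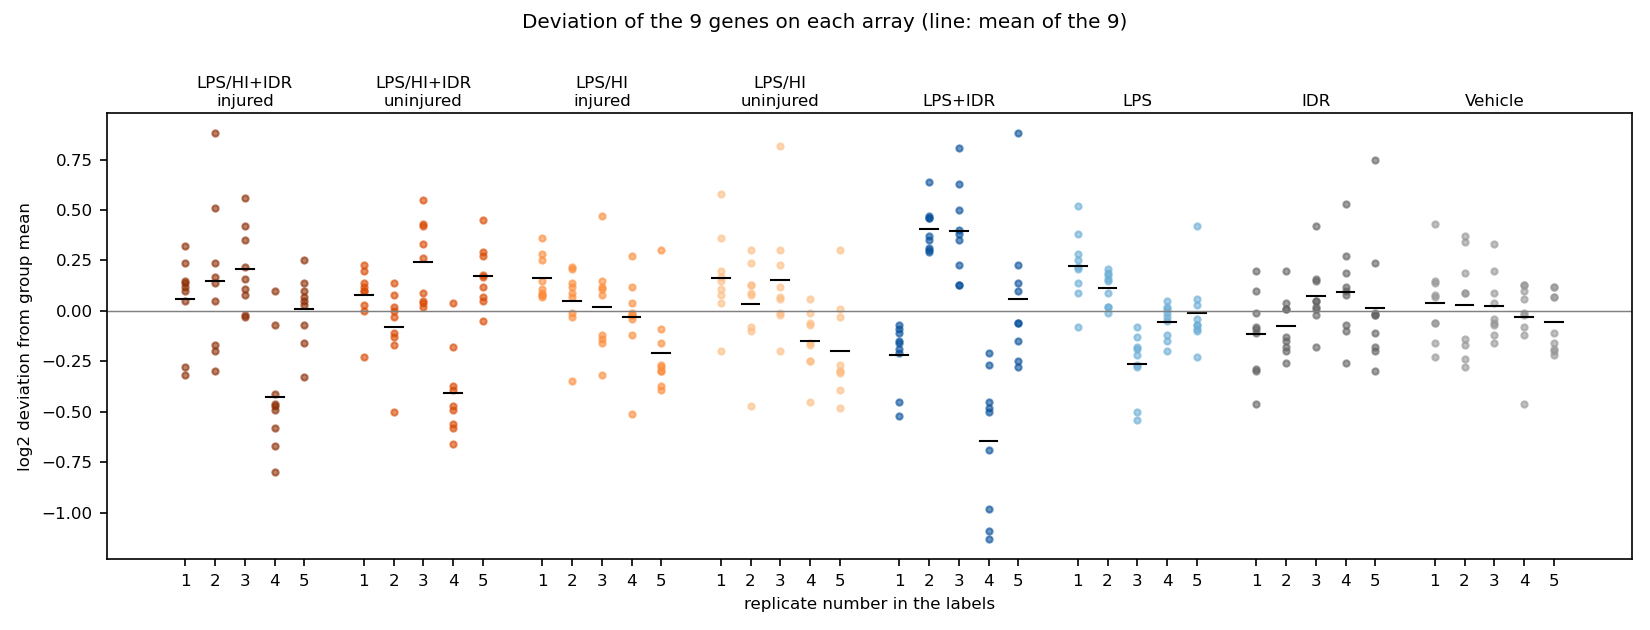
Log2 deviation from the group mean (y axis) of each of the 9 genes (points) on each array, with arrays by replicate number within group (x axis) and a line at the mean of the 9. Replicate 4 sits lowest in LPS/HI+IDR injured, LPS/HI+IDR uninjured and LPS+IDR, with lines at -0.43, -0.41 and -0.65.

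The genes most like the mean of the 9 over the 40 arrays were Parp12 (Pearson r = 0.957), Ddx58 (0.954), Irgm1 (0.952), Ms4a6d (0.940) and Xaf1 (0.940). By single gene, the highest r was that of Ddx58 for Usp18 (0.967), Trim30a (0.956) and Ifit1 (0.949), of Parp12 for Ifit3 (0.946) and Rtp4 (0.930), and of Irf7 for Oasl2 (0.952). Ifitm3 was most like Lgals9 (0.934), Rsad2 most like Tor3a (0.886) and Zbp1 most like Irgm1 (0.858). These values describe patterns across groups and arrays.

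Markers of the cell types that carry such genes were set beside these levels. The mean log2 level of 9 microglial markers lay between 7.71 and 8.37 in LPS/HI+IDR uninjured, 7.54 and 7.87 in LPS+IDR, 7.79 and 8.03 in LPS, 7.73 and 7.90 in IDR and 7.72 and 8.04 in Vehicle brains. Of the 9 single microglial markers, 2 had a difference above 0 in LPS+IDR against IDR (median -0.07). In LPS against Vehicle 5 of the 9 did (median 0.02). The number of cells was not measured. The mean of 10 astrocyte markers was higher after LPS, at 10.25 to 10.36 in LPS+IDR, against 10.08 to 10.23 in IDR brains. It lay at 10.20 to 10.35 in LPS, against 10.12 to 10.19 in Vehicle brains, with no overlap in either pair. The single astrocyte markers were split. In LPS+IDR against IDR 7 of the 10 differences were above 0 (median 0.06), and in LPS against Vehicle 6 of the 10 were (median 0.1). The mean of 9 endothelial markers was lower after LPS, at 8.57 to 8.87 in LPS+IDR, against 8.83 to 9.03 in IDR brains, with overlap. It lay at 8.36 to 8.87 in LPS, against 8.87 to 9.00 in Vehicle brains, and these ranges met within rounding. Of the 9 single differences, 2 were above 0 in LPS+IDR against IDR (median -0.14) and 1 in LPS against Vehicle (median -0.26). Neuronal markers, at 11.59 to 11.80 over all arrays, marked the tissue as brain. Their mean was lower in the injured hemispheres. With the peptide the mean lay at 11.62 to 11.70 in LPS/HI+IDR injured, against 11.68 to 11.76 in LPS/HI+IDR uninjured, with overlap. Without the peptide it lay at 11.59 to 11.63 in LPS/HI injured, against 11.72 to 11.79 in LPS/HI uninjured, without overlap. Of the 10 single neuronal differences, 3 were above 0 with the peptide (median -0.08) and 1 without it (median -0.12). Neutrophil markers lay between 5.04 and 5.46 and lymphocyte markers between 5.06 and 5.50 over all arrays. Monocyte markers lay between 6.14 and 6.37 in LPS/HI+IDR injured, 6.09 and 6.24 in LPS/HI+IDR uninjured, 6.08 and 6.36 in LPS/HI injured, 6.08 and 6.25 in LPS/HI uninjured, 6.04 and 6.27 in LPS+IDR, 6.01 and 6.19 in LPS, 5.93 and 6.04 in IDR and 5.84 and 6.07 in Vehicle brains. Every LPS/HI+IDR uninjured array thus lay above every IDR array for this list, by a narrow margin (6.09 against 6.04). Of its 5 genes 4 were higher in that comparison, and none was called. Ccr2 and Chil3 lay low on this scale, at means of 3.85 and 3.35 over all arrays. Plac8 averaged 5.11, F13a1 7.50 and Fn1 10.77. The level of the list mean thus owes most to Fn1 and F13a1. Endothelial markers had 2 of 9 genes, Pecam1 and Cdh5, called higher in LPS/HI+IDR injured than in LPS/HI+IDR uninjured, where 1.80% of all genes were. The list as a whole was split there, with 5 of the 9 differences above 0 and a median of 0.04. Of the same list, Tek was called higher in LPS/HI+IDR uninjured than in LPS+IDR, where 39 of 19937 genes were. No other marker gene of the 9 lists was called in a tested comparison. The part of cell composition in the results was not tested.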

How the data were processed

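RNA from brains or hemispheres was hybridised to Affymetrix arrays (40 samples). Per the submitters' processing notes, the deposited log2 values were made with RMA in affy. RMA corrects background, quantile normalises and summarises probes, and low differences are compressed by it. No detection call was used, so a low level may be background, and the number of arrays limits precision.

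Of 34760 probe sets, 21640 had 1 symbol in the platform annotation, 1321 several and 11799 none. Of those with 1 symbol, 21553 had a gene ID in RefSeq, giving 19937 genes. For a gene with several probe sets the highest mean was kept. limma 3.58.1 (lmFit, eBayes) in R 4.3.3 was fitted to the arrays of the groups compared, with Benjamini-Hochberg adjustment over all 19937 genes and a threshold of 0.05. The procedure was tested on simulated data. Errors of differences are SE and those of levels SD. Groups came from the sample labels. Arrays were called high in Xist above 9 and in Y-linked genes (mean of Eif2s3y, Kdm5d and Uty) above 6.

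The members and lists were chosen with earlier results of these data known. The genes named were the 9 members, up to 4 per pathway list by absolute difference in LPS against Vehicle plus any called in a tested comparison, and the genes most alike by Pearson r. Pecam1, Cdh5, Tek and Ifnb1 were named after their values were seen.

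Same-numbered arrays of LPS/HI injured and LPS/HI uninjured deviated together (correlations of 0.501, 0.431, 0.392, 0.465 and 0.646, each highest with its own number), and that contrast was only described. In the other comparisons not all correlations passed 0.1. Alternatives were other scalings, probe set choice, filter, variance prior, covariates, a replicate block, 1 fit to all groups and leaving out arrays.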

Additional observations from a re-analysis of the deposited data

Results flagged for a closer look

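Of 72 sets of 5 arrays (9 genes in 8 groups), 4 held an array far from the rest by Dixon's test, and chance flags about 1 in 20. Ifit1 in LPS/HI+IDR uninjured had its lowest value, 6.22, in replicate 4, with the next array at 6.76 and the highest at 6.91. Usp18 in LPS/HI+IDR injured had its lowest value, 6.95, also in replicate 4, with the next at 7.49 and the highest at 7.60. Ifitm3 in IDR had its highest value, 9.04, in replicate 5, with the next at 8.19 and the lowest at 8.00. Rsad2 in LPS/HI injured had its highest value, 7.48, in replicate 1, with the next at 7.09 and the lowest at 6.96.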

How the results depend on the processing

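For the injured against the uninjured hemisphere with IDR-1018, where 1 of the 9 genes was called by limma, 3 were called in 1 fit to all 8 groups, 4 with Xist as a covariate, 4 with the ribosomal protein mean as a covariate and 3 without replicate 4 of the LPS/HI+IDR groups. Leaving out single arrays gave 1 to 4. With a replicate block 5 were called, although the numbers are not known to pair these arrays (3 of 5 correlated best with their own number). The block took the genes called there to 894, against 498, and in the other comparisons it lost Oasl2 (against IDR) and added Rsad2 and Usp18 (against LPS+IDR). For LPS/HI+IDR uninjured against IDR, where 5 were called, Xist as a covariate gave 3 and leaving out single arrays 3 to 6. For LPS/HI+IDR uninjured against LPS+IDR, where 4 were called, 1 fit to all 8 groups gave 8 and leaving out single arrays 3 to 6. The cause was not tested. Counts over all genes moved too. For injury with IDR-1018 they were 1432 in 1 fit to all groups, 1083 with Xist and 2082 with ribosomal proteins. They were 352 without replicate 4 of the LPS/HI+IDR groups and 230 to 515 without single arrays. For LPS/HI+IDR uninjured against IDR they were 40, against 67 in 1 fit, 21 with Xist, 66 without replicate 4 and 21 to 66 without single arrays. Against LPS+IDR they were 127, against 251 in 1 fit and 59 to 160 without single arrays. The interaction of LPS and IDR called 1 gene, and 0 to 2 under the alternatives. The peptide comparisons called 0 of the 9 and 0 of all genes under every alternative run. Of 2448 single-gene results under alternatives, 34 became called, 24 were lost and none changed direction where called. In LPS against Vehicle, Trim30a moved to 1.66 with Xist as a covariate. RMA values carry no detection call, so low levels were not separated from background.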
